A study of Mus musculus with 18 samples.

Results

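Pigment cell genes were followed in sorted mouse epidermis. The set comprised 10 genes, chosen by symbol from the 52636 genes of the count table: the regulators Mitf and Sox10, the melanin and melanosome genes Pmel, Tyr, Tyrp1, Dct, Mlana and Oca2, the receptor Kit and its ligand Kitl. All 10 had a row. The choice applied no threshold to measured values, but it was made with earlier results of these data known. In the study, Zfp36, which encodes the mRNA-destabilizing protein TTP, was removed from epidermal cells, and C57BL/6 mice aged 8 weeks at the start received DMBA, a mutagen, and then repeated TPA, a tumor promoter. EpCAM+ CD45- CD140a- CD31- cells were sorted for RNA sequencing, although GEO's labels give whole skin as the source. Animals of the ΔEP groups (ΔK14 in the labels) were homozygous for a floxed Zfp36 allele and carried Cre driven by the human K14 promoter, which is active in basal epidermis and hair follicle keratinocytes. Their fl/fl littermates had the floxed alleles without Cre. Each genotype gave mock-treated skin ("mock"), DMBA/TPA-treated skin next to tumors ("treated") and papillomas ("tumors"). The labels call the cells of the treated groups tumoral, whereas the extraction protocol calls that skin nontumoral. There were 3 libraries per group, except for 2 of mock ΔEP, where the column of replicate 3 equaled that of replicate 2 in 52636 of 52636 genes and was counted once. This left 17 libraries.

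In mouse back skin, melanocytes live mainly in hair follicles. They derive from the neural crest, depend on the transcription factors SOX10 and MITF, and need KIT ligand from surrounding skin cells, which signals through the KIT receptor. Pigment is made while a follicle grows (anagen) and stops when it regresses and rests (telogen): TYR, TYRP1 and DCT synthesize melanin, PMEL builds the fibrils of the melanosome, and OCA2 and MLANA act in melanosome chemistry and maturation.

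MITF binds the M-box, an E-box of the core CATGTG preceded by T, in promoters of melanin genes. The 3 melanin enzymes are the classic bearers of this sequence, and their matches are shown for that reason. Whether the sequence bears on their levels in these libraries was not tested. The RefSeq promoter table (GRCm38.p6) held 10 promoters of 7 members, those of Mitf, Tyr, Tyrp1, Dct, Kit, Kitl and Oca2. Both strands of the 250 bases before each start were searched for TCATGTG. Capitals mark the match, with 10 bases on each side, read so that the match is 5′ to 3′.
Tyr, chr7:87493518-87493544, minus strand: aaaaagttagTCATGTGctttgcagaa
Tyrp1, chr4:80834156-80834182, plus strand: ggggagggagTCATGTGctgcctagta
Dct near match, chr14:118052381-118052407, minus strand: gcacttagggTCATGTGctaacaaaga
Dct far match, chr14:118052462-118052488, plus strand: tttattgggcTCATGTGtcccagccaa
The match ended 16 bases before the start of Tyr, 41 before that of Tyrp1 and 145 and 226 before that of Dct, where the far match lies on the opposite strand. The first 3 go on with CT, so that all 3 enzymes hold TCATGTGCT. This longer string was read off these matches, so its presence in all 3 is no test. It occurred in 0.335% of 32851 mouse promoter windows of this length. TCATGTG occurred in 3.251% of them, in 3 of the 7 members with a promoter, and in 4 of 6 other melanocyte genes with one (Slc24a5, Trpm1, Mc1r and Tspan10). Its inner CATGTG, present in 12.252% of windows, was also found in the Oca2 promoter. The related E-box CACGTG, present in 6.021% of windows, was in none of the members' windows. A match describes letters, not a bound site.

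Total counts ran from 2808550 in tumor fl/fl replicate 1 to 9617985 in mock fl/fl replicate 3, and 19219 to 28145 genes had a count. Levels are given as CPM, gene counts scaled to a common library size, and 3 counts, taken as the floor, were worth 0.289 to 1.503 CPM. Zfp36 ran from 152 to 713 CPM in the 9 fl/fl libraries and from 10.05 to 38.4 CPM in the 8 ΔEP libraries, without overlap. The hair cycle state of each library was read from the summed CPM of hair shaft keratin and inner root sheath genes, which growing follicles express. The list held 19 genes, of which not all had a row in the count table. This sum set the mock libraries apart within both genotypes. It was 2333 CPM in mock fl/fl replicate 1 and 2303 CPM in mock ΔEP replicate 1, against 18.6, 21.2 and 28.7 CPM in the other 3 mock libraries. The 6 treated libraries lay between 509 and 1831 CPM, and the 6 tumor libraries between 20.2 and 128 CPM. The 6 keratinocyte markers summed to 3050 to 30016 CPM over all libraries. Their lowest sums were 3105 and 3050 CPM in the 2 hair-active mock libraries, against 17049 to 20302 CPM in the other 3, and 4388 CPM in treated ΔEP replicate 1. These are also the 3 libraries with the most Tyr, and the part of keratinocyte content in the members' levels was not tested. Mock skin thus held both hair states, treated skin only the active one. Hereafter a skin library over 100 CPM is called hair-active.

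The melanin and melanosome genes tracked that division in mock skin. Tyr, the rate-limiting enzyme of melanin synthesis, stood at 35.5, 2.74 and 2.22 CPM in mock fl/fl replicates 1 to 3 and at 29.1 and 2.51 CPM in mock ΔEP replicates 1 and 2. Both hair-active libraries were thus 14.3-fold and 11.6-fold above the mean of the others of their group. Tyrp1, which acts after it in eumelanin synthesis, showed the same split, with 101, 12.9 and 7.81 CPM in fl/fl and 73.6 and 6.11 CPM in ΔEP mock skin. Dct, the dopachrome tautomerase, stood at 114, 48.5 and 23.8 CPM in fl/fl and at 98.5 and 12.9 CPM in ΔEP mock skin. Its split was 3.14-fold in fl/fl and 7.61-fold in ΔEP, smaller in both than that of Tyr. Oca2, a melanosomal transporter, had 99 counts in mock fl/fl replicate 1 and 0 in both other fl/fl libraries, and 32 against 1 count in ΔEP. Mlana stood at 10.3, 1.37 and 0.482 CPM in fl/fl and at 9.44 and 0.718 CPM in ΔEP. Pmel moved least of the 6, with 58.0, 27.4 and 32.7 CPM in fl/fl (1.93-fold) and 66.9 and 18.7 CPM in ΔEP (3.58-fold). These ratios describe single libraries and carry no test.

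Treated skin was hair-active throughout, yet its pigment levels differed among libraries. Tyr was 6.38, 9.18 and 2.60 CPM in treated fl/fl replicates 1 to 3, and 40.2, 3.90 and 3.71 CPM in treated ΔEP replicates 1 to 3. Tyrp1 was 22.1, 36.1 and 11.2 CPM in fl/fl, and 118, 12.9 and 11.8 CPM in ΔEP. Dct was 48.8, 54.9 and 27.3 CPM in fl/fl, and 121, 18.2 and 19.2 CPM in ΔEP. Treated ΔEP replicate 1 stood apart in each of the 6 melanin and melanosome genes. Against the mean of the other two libraries of its group it was 4.83-fold higher for Pmel, 10.6-fold for Tyr and 16.1-fold for Oca2. Its hair keratin sum was 1361 CPM, against 881 and 509 CPM in those libraries. Treated fl/fl replicate 3 had a higher hair keratin sum, 1831 CPM, with a summed level of the 6 genes of 52.7 CPM against 376 CPM in treated ΔEP replicate 1. High hair keratins therefore did not always come with high pigment genes.

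The regulators behaved differently. Mitf was lower in the hair-active mock library of each genotype, with 9.29 CPM against 28.2 and 27.8 CPM in fl/fl, a ratio of 0.332, and 7.55 against 10.4 CPM in ΔEP, a ratio of 0.725. In treated skin it lay between 9.47 and 17.7 CPM, and treated ΔEP replicate 1, the library richest in melanin genes, had the lowest of these values. The counts join all Mitf transcripts, of which only some are specific to melanocytes. Sox10, which acts upstream of Mitf in the melanocyte lineage and is also made by Schwann cells, was near the floor everywhere, at 0.651 to 1.97 CPM in skin (2 to 18 counts).

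Kit and Kitl each followed the hair state of mock skin. Kit was 82.9, 14.9 and 6.65 CPM in mock fl/fl and 79.0 and 3.95 CPM in mock ΔEP, 7.71-fold and 20.002-fold higher in the hair-active library. Kitl was 242, 28.8 and 26.2 CPM in mock fl/fl and 234 and 31.3 CPM in mock ΔEP, 8.80-fold and 7.47-fold higher. In treated skin Kit was 72.6, 45.2 and 108 CPM in fl/fl and 87.1, 52.4 and 26.8 CPM in ΔEP, and Kitl was 100.5, 59.2 and 52.2 CPM in fl/fl and 162, 115 and 93.5 CPM in ΔEP. Every treated value of both genes was above the 3 hair-inactive mock libraries.

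**Figure D1:**
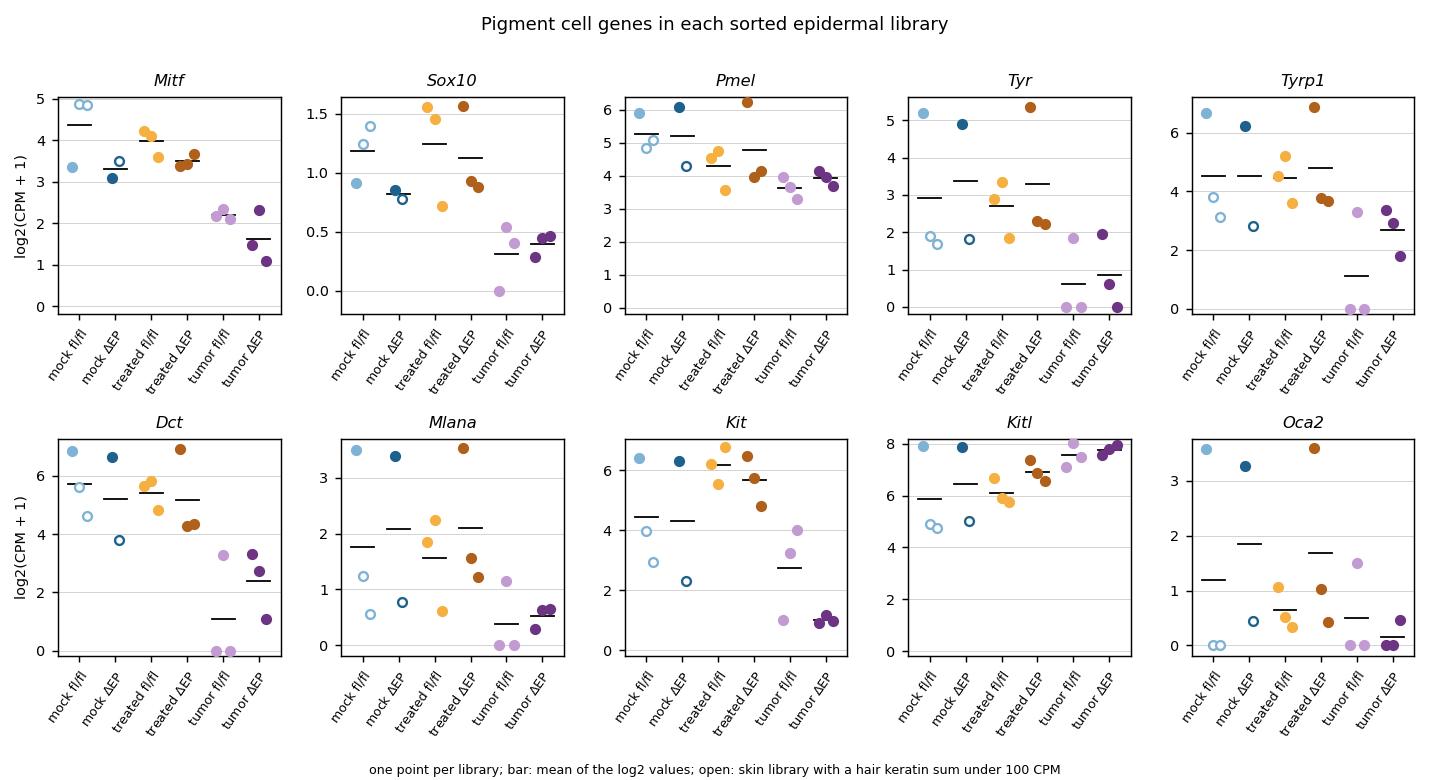
Each panel shows 1 gene, with log2(CPM + 1) on the vertical axis and the 6 groups on the horizontal axis; each point is 1 library, bars are means of the log2 values, and open points are skin libraries with a hair keratin sum under 100 CPM. Tyr, Tyrp1, Dct, Mlana and Oca2 were high in the same 3 skin libraries, Mitf was not, and Kitl was high in all 6 tumors.

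Per kilobase of annotated exon, which allows genes to be set side by side, the median over the 11 skin libraries was highest for Kitl (15.8 CPM per kb), followed by Pmel (11.3), Dct (8.23), Kit (5.88) and Tyrp1 (4.56). Mlana (1.84) and Mitf (1.81) came next, and Tyr (0.548), Sox10 (0.298) and Oca2 (0.110) were the lowest. The levels varied so widely among skin libraries that neighbors in this order overlapped in range. In tumors the same measure was 34.6 for Kitl, 5.72 for Pmel and 1.59 for Tyrp1, and all others were under 1. Pmel (chr10:128704195-128720238) shares 34 and 105 exon bases with Cdk2 and Dgka, which lie on the opposite strand, and whether reads were counted by strand is not given in the sources used here.

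Over the 8 hair-active skin libraries (2 mock and 6 treated), each member was correlated with the hair keratin sum on a log2(CPM + 1) scale, 10 relations in all, each with a 2-sided exact permutation test. Kit had the largest coefficient, with Pearson's r = 0.869 (exact permutation p = 0.00556, adjusted over the 10 genes 0.0556) and Spearman's rho = 0.786 (p = 0.0279, adjusted 0.270). Without mock fl/fl replicate 1 and treated ΔEP replicate 3, the libraries farthest from the median, r was 0.723. Dct followed, with r = 0.702 and rho = 0.690 (exact permutation p = 0.0523 and 0.0694, adjusted 0.251 and 0.270), and r was 0.461 without those 2 libraries. Mitf had the lowest coefficient, with r = -0.425 and rho = -0.643 (exact permutation p = 0.292 and 0.0962, adjusted 0.324 and 0.270). No adjusted value was under 0.05. Within the 6 treated libraries alone, an alternative chosen after seeing the data, Kit gave r = 0.956 (exact permutation p = 0.00417, adjusted 0.0417) and rho = 0.943 (p = 0.0167, adjusted 0.167), with r = 0.783 over the 4 libraries left without the 2 farthest. There Tyr gave r = 0.234 (exact permutation p = 0.599, adjusted 0.918) and rho = 0.0857 (p = 0.919, adjusted 1.0). Over the 4 libraries left without the 2 farthest, r was 0.884 for Tyr, 0.971 for Dct and 0.917 for Pmel, above that of Kit, so the order of the genes rested on those 2 libraries.

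**Figure D2:**
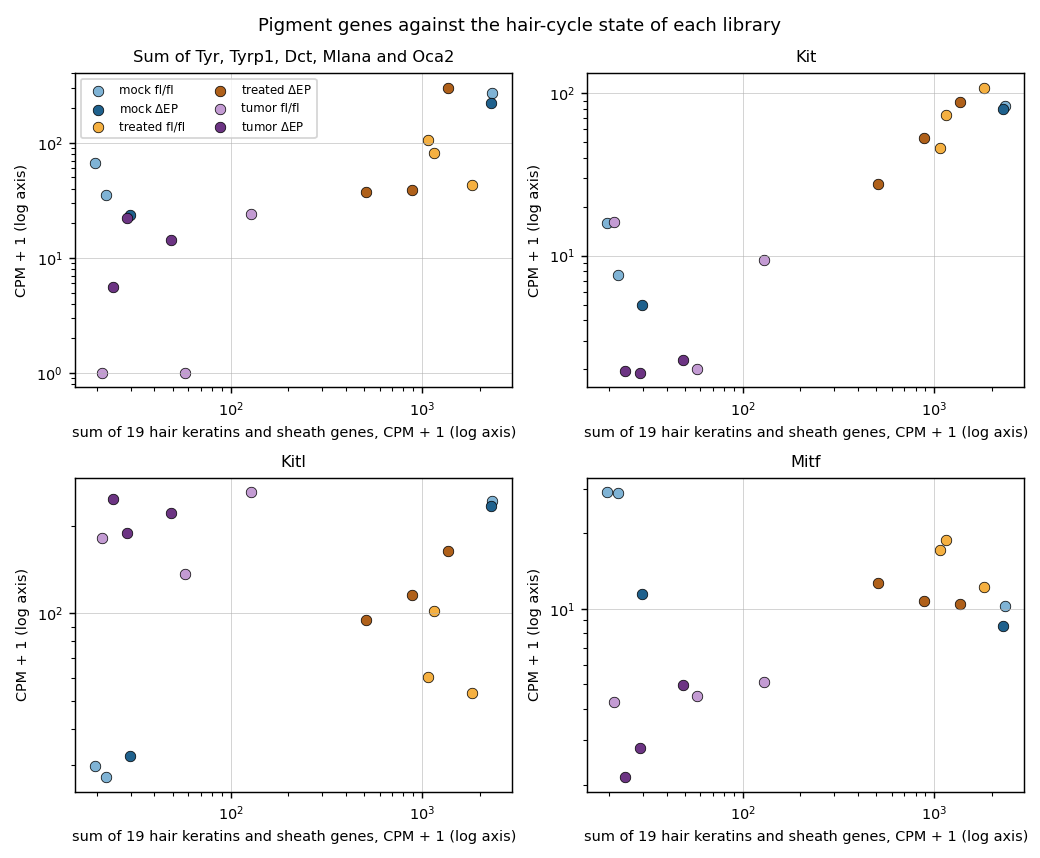
Each panel plots, on log axes, the CPM + 1 of the summed 5 melanin and melanosome genes without Pmel, or of Kit, Kitl or Mitf. The horizontal axis is the summed CPM + 1 of the 19 listed hair keratins and sheath genes, as far as they had a row. Each point is 1 library, colored by group. Kit ran from 26.8 to 108 CPM in the 8 hair-active skin libraries and from 3.95 to 14.9 CPM in the 3 others, whereas Kitl was also high in tumors, where the hair keratin sum was low.

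Loss of Zfp36 was compared within each kind of sample to ask whether the genotypes differed in pigment genes. Calls required more than a 2-fold change together with an adjusted p below 0.05 in edgeR's quasi-likelihood test with Benjamini-Hochberg adjustment over all genes tested. In mock skin 0 of 9 members tested were called, where 0% of 15920 genes were, and 0 had an unadjusted p under 0.05. In treated skin 0 of 9 were called, where 0.00616% of 16232 genes were, and 2 had an unadjusted p under 0.05. These were Kitl, 70.6 ± 26.1 CPM in fl/fl skin against 124 ± 35.3 CPM in ΔEP skin (SD, n = 3), and Mitf, 15.0 ± 3.42 and 10.3 ± 1.17 CPM. Their log2 differences (ΔEP minus fl/fl) were 0.78 (SE 0.297) and -0.57 (SE 0.234), each with an adjusted p of 0.897. In tumors 0 of 5 were called, where 0.0284% of 14067 genes were, and 0 had an unadjusted p under 0.05. DESeq2 also called 0 members in each of these 3 comparisons. Kit was not among the 5, since its counts in tumors were too low for the filter: 2, 55 and 46 counts in tumor fl/fl replicates 1 to 3 and 4, 7 and 5 counts in tumor ΔEP. In CPM these were 1.002, 8.37 and 15.0 against 0.893, 1.27 and 0.948, so that 2 fl/fl libraries were above all others and the groups overlapped through replicate 1, the shallowest library. Without that library Kit passed the filter and was called lower in ΔEP tumors, in a fit that called 2613 of 15463 genes against 4 with the library. For Tyr, treated ΔEP skin had 15.9 ± 21.03 CPM and treated fl/fl skin 6.05 ± 3.30 CPM (SD, n = 3), a difference within the spread, most of the former coming from 1 library.

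Treated skin was compared with mock skin to ask what DMBA and TPA had changed away from tumors. In fl/fl mice 0 of 9 members tested were called, where 0% of 16601 genes were, and in ΔEP mice 0 of 9, where 0% of 15891 genes were. No member reached an unadjusted p of 0.05 in either, and DESeq2 called 0. The fl/fl result depended on 1 library, the hair-active mock fl/fl replicate 1. That library also had a lower keratinocyte marker sum than replicates 2 and 3 (3105 against 20302 and 17049.5 CPM). It had less Zfp36 as well, 152 against 713 and 620 CPM. Kitl had a log2 difference of -0.49 (SE 0.885, adjusted p = 0.964, edgeR) with all 3 mock libraries and of 1.40 (adjusted p = 0.0154) without the hair-active mock fl/fl replicate 1. Kit had 1.11 (SE 0.891, adjusted p = 0.914) with it and 2.90 (adjusted p = 0.00617) without it, so that both genes were higher in treated skin than in hair-inactive mock skin. The fit without that library called 2587 of 17103 genes, against 0 of 16601 with it, so these changes were not particular to Kit and Kitl. With a hair-cycle covariate, 0 members were called in either genotype. Treatment and hair state cannot be told apart in the comparison without that library, since all treated libraries were hair-active.

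Tumors were compared with treated skin, which shared the DMBA and TPA exposure. In fl/fl mice 7 members could be tested, of which 3 fell and 1 rose, where 10.5% of 15362 genes were called lower and 7.5% higher. At least Kit and Tyr passed the filter only through treated skin, as their counts among tumors alone were too low for it. A fall was nearly the only change open to them, so the count of members and the share of all genes are not alike. Kit fell by 3.17 on the log2 scale (SE 0.648, adjusted p = 0.0132, edgeR), from 72.6, 45.2 and 108 CPM in treated skin to 1.002, 8.37 and 15.0 CPM in tumors. Mitf fell by 2.05 (SE 0.306, adjusted p = 0.00463), from 17.7, 16.2 and 11.2 CPM to 3.51, 4.11 and 3.27 CPM. Neither gene's groups overlapped. Dct fell by 3.55 (SE 0.917, adjusted p = 0.0279), and its tumor libraries held 0, 57 and 0 counts. Kitl rose by 1.41 (SE 0.329, adjusted p = 0.0201), from 100.5, 59.2 and 52.2 CPM to 136, 261 and 180.2 CPM. The receptor was thus lower and its ligand higher in tumors, in every library. Tyr (-2.30, SE 0.912, adjusted p = 0.0996), Tyrp1 (-2.63, SE 0.990, adjusted p = 0.0868) and Pmel (-0.78, SE 0.357, adjusted p = 0.140) did not pass.

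In the fl/fl tumors, nearly all counts of 5 melanin and melanosome genes came from 1 library. Replicate 2 held 17 counts of Tyr, 58 of Tyrp1, 57 of Dct, 8 of Mlana and 12 of Oca2, whereas replicates 1 and 3 held 0 of each. At the depth of those libraries, 0 counts allow up to 1.503 and 0.980 CPM. Treated fl/fl skin had at least 27.3 CPM of Dct, 11.2 CPM of Tyrp1 and 2.60 CPM of Tyr, above those limits. Mlana and Oca2 were as low as 0.521 and 0.260 CPM there, under both limits, so their zeros do not show a fall. Replicate 2 also had the highest hair keratin sum of the 6 tumor libraries, 128 CPM against 20.2 to 56.6 CPM. Pmel was an exception to the zeros, with 29, 77 and 27 counts in the 3 libraries, or 14.5, 11.7 and 8.82 CPM, beside 19.5 to 21.6 CPM of the overlapping Cdk2. The part of the overlapping genes in these counts was not tested.

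In ΔEP mice 7 members could be tested, of which 5 fell and 0 rose, where 15.5% of 15289 genes were called lower and 10.5% higher. At least Kit and Tyr again passed the filter only through treated skin, so this count and the share of all genes are not alike. Kit fell by 5.80 on the log2 scale (SE 0.531, adjusted p = 0.000313, edgeR), from 87.1, 52.4 and 26.8 CPM in treated skin to 0.893, 1.27 and 0.948 CPM in tumors. Mitf fell by 2.23 (SE 0.425, adjusted p = 0.00496), from 9.47, 9.74 and 11.6 CPM to 1.79, 3.98 and 1.14 CPM. Dct fell by 3.43 (SE 0.894, adjusted p = 0.0173), to 8.93, 5.61 and 1.14 CPM. Tyr fell by 3.93 (SE 1.24, adjusted p = 0.0361), to 2.90, 0.543 and 0 CPM, and Tyrp1 fell by 3.05 (SE 0.942, adjusted p = 0.0336), to 9.37, 6.52 and 2.46 CPM. Unlike the fl/fl tumors, each of the 3 ΔEP tumors held counts of Tyrp1 and Dct. Without treated ΔEP replicate 1, the library rich in pigment genes, Tyr had a log2 difference of -1.87 (adjusted p = 0.126) and Tyrp1 of -1.10 (adjusted p = 0.0916). Kitl was 188, 221 and 247 CPM in tumors against 162, 115 and 93.5 CPM in treated skin. Its log2 difference of 0.72 (SE 0.232, adjusted p = 0.0387) was under the 2-fold threshold. Pmel had -1.38 (SE 0.592, adjusted p = 0.0982). Sox10, Mlana and Oca2 were too low to be tested in either genotype.

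Mitf in both genotypes and Kit in ΔEP mice were called whichever 1 library was left out. The other calls were not. In fl/fl mice Kit had an adjusted p of 0.0529 without treated replicate 1 and 0.0513 without treated replicate 3. Dct had 0.0991, 0.0836 and 0.0641 without treated replicates 1, 2 and 3 and 0.0586 without tumor replicate 3. Kitl had 0.0762 and 0.0773 without treated replicates 2 and 3 and 0.0535 without tumor replicate 3. In ΔEP mice Dct had 0.0541 and 0.0584 without tumor replicates 2 and 3, Tyr 0.107 without either, and Tyrp1 0.0618, 0.0865 and 0.112 without tumor replicates 1, 2 and 3. These are adjusted p from edgeR. DESeq2 gave an adjusted p of 0.140 for Dct in fl/fl and 0.0622 for Tyr in ΔEP mice, and fitting all 17 libraries at once gave 0.182 for Kitl in fl/fl mice.

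**Figure D3:**
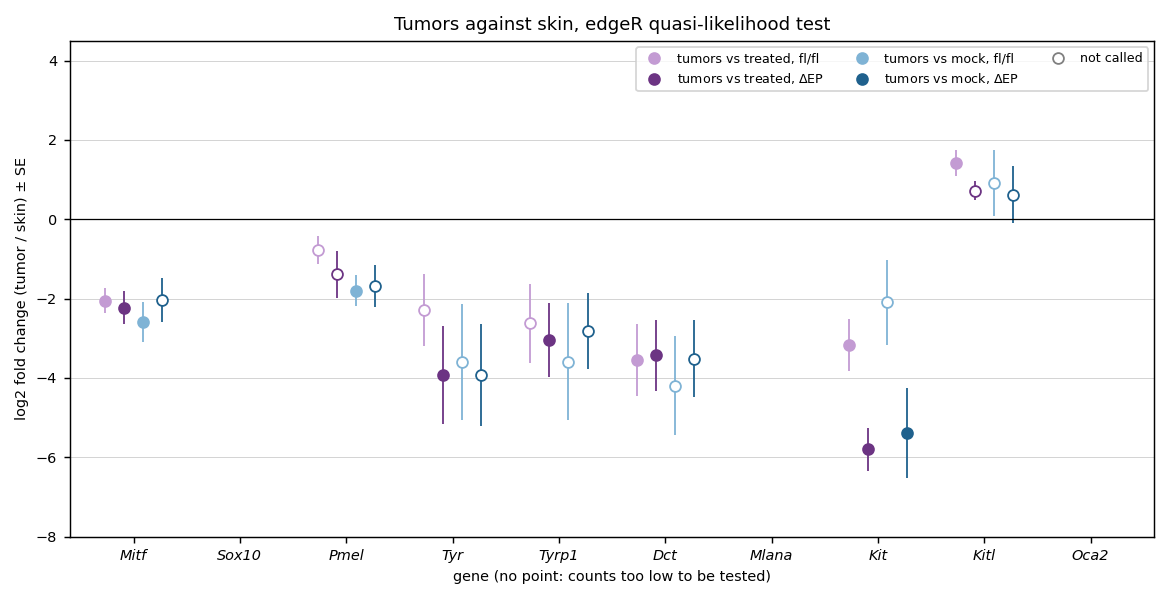
The vertical axis gives the log2 fold change of tumors over skin with its SE, and the horizontal axis the gene; filled points were called, open points were not, and a gene without a point had too few counts to be tested. Kit fell by 5.80 and 5.39 in ΔEP tumors against treated and mock skin, and Kitl had values above 0 in all 4 comparisons, called in 1.

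Whether the change from treated skin to tumors differed between genotypes was tested as an interaction. It was called for 0 of 9 members, where 0.0118% of 17017 genes were called, and DESeq2 called 0. Kit was the 1 member with an unadjusted p under 0.05: its log2 change was lower in ΔEP by 2.62 (interaction -2.62, SE 0.942, adjusted p = 0.281, edgeR). Without tumor fl/fl replicate 1, which had 1.002 CPM of Kit, the interaction was -3.02 (adjusted p = 0.0349). That fit called 1352 of 17951 genes, against 2 of 17017 with the library.

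Against mock skin, tumors of fl/fl mice had lower Mitf (-2.59, SE 0.506, adjusted p = 0.0382, edgeR) and Pmel (-1.80, SE 0.392, adjusted p = 0.0493), 2 of 7 members tested, where 1.88% of 15394 genes were called lower. Both calls were lost without any 1 of mock replicates 2 and 3 or tumor replicates 1 to 3, with adjusted p of 0.0725 to 0.172 for Mitf and 0.0774 to 0.203 for Pmel, although both kept fold changes over 2. Dct had the largest difference, -4.20 (SE 1.24, adjusted p = 0.0898), in libraries of mixed hair state. In ΔEP mice Kit fell by 5.39 (SE 1.12, adjusted p = 0.0288), 1 of 7 members tested, where 7.22% of 15027 genes were called lower. Here Kit passed the filter only through mock skin. Against the hair-inactive mock ΔEP replicate 2 alone, a single library whose spread is taken from the tumors, Kit had -1.93 and was not called. Leaving out a tumor library gave adjusted p of 0.110 to 0.112. Kitl moved the other way. Its log2 difference was 0.91 (SE 0.841, adjusted p = 0.528) in fl/fl and 0.62 (SE 0.716, adjusted p = 0.577) in ΔEP with all mock libraries. Without the hair-active library it was 2.80 (adjusted p = 0.00320) in fl/fl and 2.77 in ΔEP. In ΔEP this left 1 mock library, with no check of spread within mock skin, so only the size is given. Tumors thus had Kitl near the level of hair-active mock skin, 136 to 261 CPM against 242 and 234 CPM. Kit in tumors, 0.893 to 15.0 CPM, lay near or below its level in hair-inactive mock skin, 3.95 to 14.9 CPM. These comparisons share their tumor libraries with those against treated skin.

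In these bulk samples, fewer melanocytes and less pigment RNA per melanocyte cannot be told apart, and neither can melanocyte and other sources of Kit, Kitl and Mitf. Marker lists were therefore set beside the members. Of 9 other melanocyte genes, 4 could be tested between tumors and treated skin in each genotype, and 3 fell in both: Ednrb, the endothelin receptor of the lineage (-2.49, SE 0.749 in fl/fl and -3.45, SE 0.929 in ΔEP), Trpm1 (-2.07, SE 0.621 and -3.69, SE 0.901) and Gpnmb, a melanosomal glycoprotein also made by macrophages (-3.04, SE 0.423 and -4.05, SE 0.657). The median of the 4 was -2.45 in fl/fl and -3.57 in ΔEP, against -0.02 and -0.03 over all genes tested. Of all genes tested, 10.5% in fl/fl and 15.5% in ΔEP were called lower. Ednrb and Trpm1 did not pass the filter among tumors alone. They entered through treated skin, so a fall was nearly the only change open to them. The count and medians are therefore descriptions and no test of the list. The genotypes shared no library in these comparisons. Slc24a5, the fourth, had -2.42 (SE 0.777, adjusted p = 0.0550, edgeR) in fl/fl and 0.11 (SE 0.483, adjusted p = 0.874) in ΔEP. It stood at 12.1, 7.79 and 11.2 CPM in ΔEP tumors and at 3.51, 0.761 and 0 CPM in fl/fl tumors. Of its exon bases, 921 (39.5%) are shared with Myef2 on the other strand, which stood at 24.5, 13.9 and 28.2 CPM and at 15.0, 1.67 and 0.980 CPM in those libraries; its part was not tested.

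Genes of melanosome transport, which keratinocytes also use, were called at shares near or below those of all genes given above. Of 17, 16 could be tested. In fl/fl 1 rose and 0 fell, with a median log2 change of -0.16, and in ΔEP 2 rose and 2 fell, with a median of 0.09. Myo5a, the motor that holds melanosomes at the cell edge, had -0.20 (SE 0.345) in fl/fl and 0.53 (SE 0.173) in ΔEP. Ap3b1 and Ap3d1, subunits of an adaptor that sorts melanosomal cargo, lay between -0.16 and 0.17. Lyst fell by 1.11 (SE 0.226) in ΔEP. The others called, chosen for naming after their values were seen, were Rab32, which rose by 1.09 (SE 0.224 in fl/fl and 0.216 in ΔEP), and in ΔEP Slc7a11, a cystine transporter, which rose by 3.31 (SE 0.305), and Atp7a, a copper transporter, which fell by 1.38 (SE 0.235).

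Ligands by which skin cells act on melanocytes were compared in the same way. Cxcl12, a chemokine made in skin and attractive to melanocyte precursors, fell by 3.85 (SE 0.477) and 3.64 (SE 0.656) in fl/fl and ΔEP tumors against treated skin. Fgf2, a mitogen for melanocytes, fell by 2.89 (SE 0.397) in ΔEP and had -0.28 (SE 0.547, adjusted p = 0.733, edgeR) in fl/fl, with 2.23, 5.07 and 2.46 CPM in ΔEP tumors and 4.01, 20.5 and 11.1 CPM in fl/fl tumors. The difference between these changes, tested as an interaction, was -2.61 (SE 0.733, adjusted p = 0.208, edgeR). Edn1, endothelin, had -1.15 (SE 0.504) and 0.37 (SE 0.364), neither called.

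**Figure D4:**
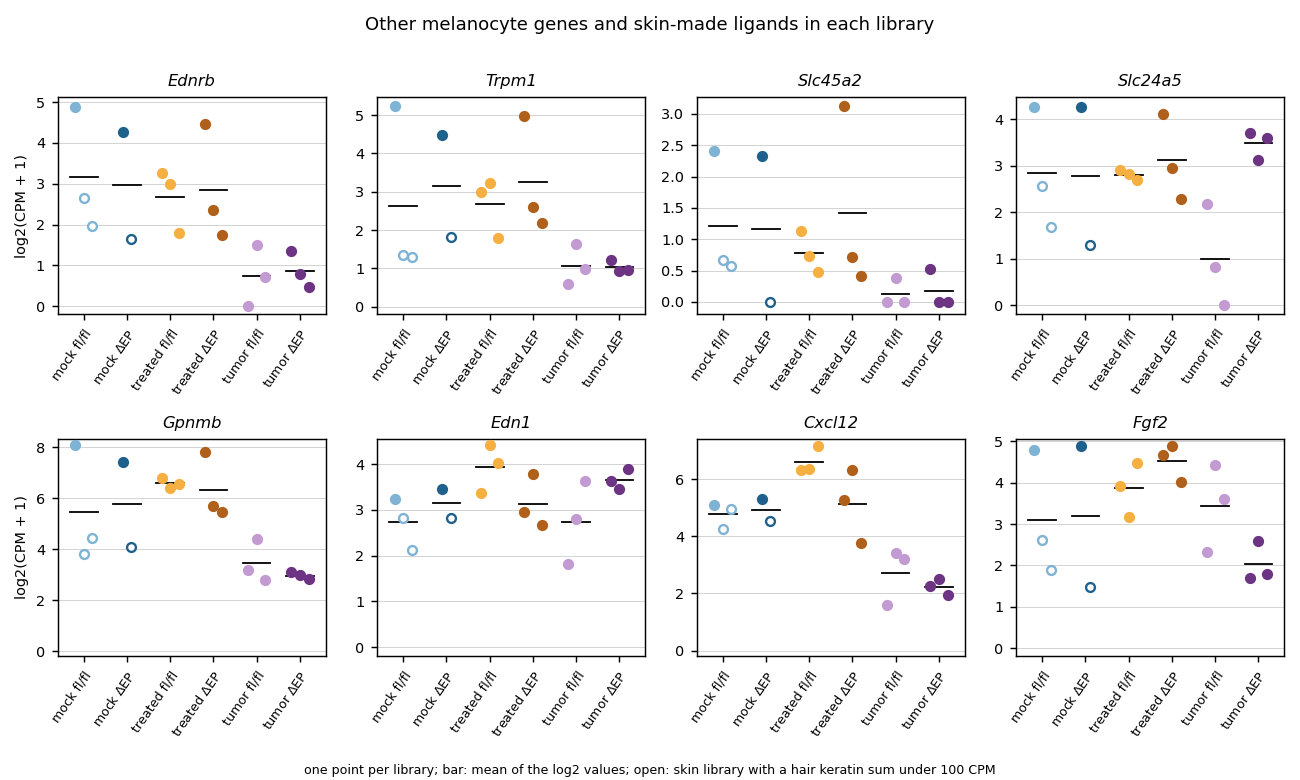
Each panel shows 1 gene outside the set, with log2(CPM + 1) on the vertical axis and the 6 groups on the horizontal axis; each point is 1 library, bars are means of the log2 values, and open points are skin libraries with a hair keratin sum under 100 CPM. Ednrb, Trpm1 and Slc45a2 were high in the skin libraries that were high for Tyr, and Cxcl12 was lower in all 6 tumors (2.003 to 9.59 CPM) than in any skin library (12.6 to 141 CPM).

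Other cell types and follicle genes moved with some results. Between treated skin and tumors, 7 of 7 inner root sheath genes tested fell in each genotype. So did 4 of 8 hair shaft genes tested in fl/fl and 4 of 4 in ΔEP mice. Of the hair matrix genes, 7 of 10 fell in fl/fl and 8 of 10 in ΔEP mice. Among all genes tested, 10.5% and 15.5% were called lower. Among tumors alone, 1 inner root sheath gene and 0 hair shaft genes passed the filter. The others tested from both lists entered through treated skin, so a fall was nearly the only change open to them. The part of these genes in the fall of Kit and Mitf was not tested. The 9 mast cell markers, which matter because mast cells express Kit, summed to 0.386 to 4.54 CPM in skin and 1.503 to 13.6 CPM in tumors. The highest sum was mostly Il1rl1, which reached 12.9 CPM in ΔEP tumors. Its means were 2.70 and 6.59 CPM in fl/fl and ΔEP tumors, against 0.949 and 1.51 CPM in treated skin. Cpa3, Mcpt4, Ms4a2 and Fcer1a were at 0 in all 6 tumors. How much Kit mast cells would bring was not tested. The 6 fibroblast markers summed to 375 to 1671 CPM in skin and 30.3 to 385 CPM in tumors. Against treated skin, 2 of them fell in fl/fl and 1 in ΔEP tumors, where 10.5% and 15.5% of all genes were called lower. The 6 markers had median log2 changes of -0.85 in fl/fl and -0.01 in ΔEP, so the list as a whole did not fall in ΔEP. Of these, Dcn, named for its highest mean, was 842 and 973 CPM in the hair-active mock libraries and 839 CPM in treated ΔEP replicate 1, the 3 libraries high for Tyr, and 46.9 to 387 CPM in the other 8 skin libraries. The collagen markers did not follow Tyr: in mock ΔEP skin Col1a1 was 28.6 CPM in the hair-active and 561 CPM in the hair-inactive library. The CD140a- and CD45- gates of the sort were meant to remove fibroblasts and mast cells, and the part of these cells in the members' levels was not tested. The sort also kept only EpCAM+ cells, and whether melanocytes passed that gate equally in skin and tumors was not tested. Epcam averaged 120 and 127 CPM in fl/fl and ΔEP treated skin and 328 and 322 CPM in their tumors. The keratinocyte markers summed to 4388 to 20183 CPM in treated skin and 8578 to 30016 CPM in tumors. Their part in the falls was not tested. The 9 Schwann cell markers, from cells that share Sox10 with melanocytes, were mixed. Their sum was 37.4 and 43.4 CPM in the hair-active mock libraries and 145 to 189.7 CPM in the 3 others, led by Mbp with 6.19 and 7.28 CPM against 71.8 to 109 CPM. Prx went the other way, with 8.63 and 7.55 CPM against 2.51 to 2.93 CPM.

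The genes most like the set were sought by Spearman's rho with the mean log2(CPM + 1) of the 6 melanin and melanosome genes over the 11 skin libraries, which differ in hair state and depth. Of 18242 genes ranked, the first were Ednrb and Slc45a2 (rho = 0.955 each), followed by Ift74 and Gtf3c5 (0.945 each) and Syt4 (0.936). Slc45a2, a melanosomal transporter, stood at 4.31 and 4.05 CPM in the hair-active mock libraries, at 7.69 CPM in treated ΔEP replicate 1 and at 0 to 1.19 CPM in the other 8 skin libraries. Syt4 had 12.3, 6.74 and 13.4 CPM in those 3 libraries and 0.289 to 3.93 CPM in the rest. Gtf3c5 followed the ranks within a narrow range, 25.0 to 36.5 CPM. The coefficients are given as descriptions.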

How the data were processed

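Counts per gene were deposited by the authors as 1 table of 18 columns, raw and unnormalized. Per the labels, the processing notes name Trimmomatic 0.36, STAR 2.5.3, HTSeq 0.9.1, DESeq2 and the mouse build mm10. Their roles, the annotation release, the use of strand and any removal of PCR duplicates are not given in the sources used here. RNA was amplified from few sorted cells, so PCR copies may inflate counts, and limits from counts cover counting error only. Whether the libraries of a group came from separate animals is not given, and p-values measure only the spread between these libraries.

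Group and replicate were taken from the labels, and the duplicated mock ΔEP column was used once. CPM used TMM-scaled totals over 17 libraries. Each comparison was fitted on its own groups in edgeR 4.0.16 (R 4.3.3, limma 3.58.1) with its low-count filter, TMM and the quasi-likelihood F test. The study's methods name edgeR, without the kind of test, and an adjusted p of 0.05 for these cells. The fold of 2 was chosen here. The fits of genotype in mock skin and of fl/fl tumors against treated skin were tried on simulated counts with the same dispersion for all genes. That setting lacks the libraries that stood apart here, so it does not bear on the calls. Alternatives were DESeq2 1.42.0, RLE scaling, no filter, a single fit, a replicate block, a hair-cycle covariate and leaving out each library. All 10 members are named, with the 5 genes most like them. In the lists of other melanocyte, melanosome transport and ligand genes, up to 4 of highest mean CPM are named, with the few others called. Genes of the remaining lists were not named by a fixed rule. Calls in some of those lists, such as bulge and Merkel cell genes, are not described. The members and lists were chosen with earlier results of these data known. Gene positions are from GENCODE on GRCm38 (mm10). 1 gene of the ligand list is not reported here.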

Additional observations from a re-analysis of the deposited data

How the results depend on the processing

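The number of members called depended on the libraries and the filter. The number of all genes called moved as well, so these counts are no result about the members alone. In fl/fl tumors against mock skin, 30 of 16550 genes were called without mock replicate 2 and 630 of 17250 without tumor replicate 1. Leaving out 1 library gave 0 to 2 calls in treated against mock fl/fl skin, 0 to 3 in fl/fl tumors against mock and 1 to 6 against treated skin, 0 to 7 in ΔEP tumors against mock (2 and 7 where 1 mock library remained, whose spread is taken from the tumors) and 2 to 7 against treated skin, and 0 to 1 both between genotypes in tumors and for the interaction. The change of Kitl between treated and mock fl/fl skin turned from -0.49 to 1.40 without the hair-active mock fl/fl replicate 1, within a range of -0.93 to 1.40 over single libraries left out. Without the low-count filter, 3 members were called between genotypes in treated skin and 1 in tumors, where 218 of 33755 and 1393 of 32605 genes were. In fl/fl and ΔEP tumors against mock skin 6 and 8 were called, where 2595 of 33968 and 4154 of 31793 genes were. In ΔEP tumors against treated skin 8 were called, where 5509 of 33822 genes were. For the interaction 2 were called, where 1003 of 36391 genes were. The cause was not tested. In tumors against mock skin, RLE scaling left 1 call in fl/fl, where 630 of 15394 genes were called. In ΔEP, DESeq2 gave 6, where 2805 of 15027 genes were called, and a single fit 2, where 3074 of 18252 were. The single fit gave 3 in ΔEP tumors against treated skin, where 3509 of 18252 genes were called. DESeq2 gave no adjusted p for 4 member results. The hair-cycle covariate was run in the skin comparisons only, which had no member call, and gave none.

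With the replicate number as a block, 0 members were called in fl/fl tumors against mock skin, where 244 of 15394 genes were. In ΔEP mice Kit was then not called against mock skin (adjusted p = 0.0554, edgeR) and Tyr was (0.0371), and Tyrp1 was called in fl/fl tumors against treated skin (0.0429). Same-numbered libraries did not deviate together in every pair of any comparison with 3 pairs (correlations of -0.585 to 0.439); in the comparisons with 2 pairs all were positive (0.109 to 0.811), and replicate 1 was the hair-active library of both mock groups. With 3 pairs, 0 to 4 of 6 libraries correlated best with their own number, so the numbers were not taken as pairs. Depth limits Sox10, Mlana and Oca2, which were too low to be tested in most tumor comparisons.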
